A study of Mus musculus with 12 samples.

Results

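The App processing genes are the amyloid precursor protein gene App, its paralogues Aplp1 and Aplp2, and 6 genes of the secretases that cut the proteins these genes encode, namely Bace1, Bace2, Adam10, Psen2, Aph1a and Psenen. They were chosen by name, because App is a gene with a known binding site for upstream stimulatory factors in its promoter, and all 9 names were found among the 55487 genes of the table. RNA from the hippocampus of 12 mice was sequenced singly, 6 of them WT and 6 USF-1 KO. Both genotypes were littermates from heterozygous breeding on the C57Bl/6JRccHsd background, 3 to 4 months old. The study housed mice singly before behavioural experiments, and does not state whether the sequenced mice were among those tested. The KO is carried in all tissues and throughout life, and is not restricted to the hippocampus. According to the labels 4 WT mice were female and 2 male, and 2 USF-1 KO mice were female and 4 male. A figure legend of the study gives other numbers of each sex, so results that use sex rest on the labels. Mice are numbered here within their genotype, and WT 1 to WT 4, KO 1 and KO 2 are the females.

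Amyloid precursor protein is a membrane protein of neurons and many other cells, and its paralogues are close relatives that share much of its function. Cleavage by an α-secretase, chiefly the metalloproteases ADAM10 and ADAM17, cuts within the amyloid beta stretch and releases the large soluble ectodomain. Cleavage by the β-secretase BACE1 instead opens the way for the γ-secretase, a complex of a presenilin, nicastrin, an APH1 subunit and PEN-2, the product of Psenen, to release amyloid beta. USF-1 binds DNA as a dimer at E-boxes, short sequences of which the palindrome CACGTG is the preferred form.

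The deposited values are normalised counts, the reads on a gene divided by 1 size factor per library, with 21679622 to 32091173 reads on genes per mouse. The targeted gene Usf1 averaged 1409 ± 284 normalised counts in WT mice (SD, n = 6) and 141 ± 15 without the intact gene (SD, n = 6), 9.98% of WT, with a log2 difference of -3.29 (limma adjusted p = 1.77e-08). The summed choroid plexus markers Ttr, Folr1, Kl, Clic6 and Kcnj13 were far higher in WT 1, with 57004, and WT 5, with 161071, than in any of the other 10 mice, which had 755 to 2627. The 6 oligodendrocyte markers summed to 83576 to 180879 in WT mice, while USF-1 KO mice had 71972 to 110270, and 6 of 6 were lower at an unadjusted p under 0.05 (7.60% of the 18221 genes tested), with 0 past the adjusted threshold (limma adjusted p between 0.0722 and 0.129). Markers of hippocampal granule and pyramidal cells had reads in every mouse. In whole tissue, fewer cells of a type and less RNA per cell cannot be told apart.

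The promoters of the 9 genes are shown first, since an E-box is what the deleted factor would bind. RefSeq windows from 250 bases before to 50 bases after the start on GRCm38.p6 were at hand for 7 of the 9 genes, in 9 windows, and not for Bace1 and Bace2. CACGTG occurred in 2 of the 7 genes, Adam10 and Psen2, against 8.09% of 27025 genes and 7.15% of their 32851 windows. The related palindrome CAGCTG occurred in App alone of the 7, against 18.3% of genes and 16.3% of all windows. Neither CACATG, nor its reverse complement CATGTG, nor the extended palindrome TCACGTGA, which contains CACGTG, was found in the 9 windows, against 14.2% of all windows for the first pair and 0.974% for the last. All of these except the CACATG pair read the same on both strands, so each match was counted once. A match is a run of letters and not a measured binding site. Outside the 9, the windows of Adam17, the other main α-secretase gene, and Ncstn, the nicastrin gene, were searched too, and Ncstn held none of these motifs. The 30 bases around each match are given in the direction of the gene, with the E-box in capitals. The match in Adam17 is added because the level of Adam17 is described further on.
App, chr16:85173736-85173765, minus strand: ggtgggcgggatCAGCTGactctgccggct
Adam10, chr9:70678906-70678935, plus strand: gtgccgtcgcgtCACGTGgcgagaaaggag
Psen2, chr1:180245942-180245971, minus strand: gacattttcctcCACGTGacaggagttcca
Adam17, chr12:21373780-21373809, minus strand: tcaggacgccgcCAGCTGaaggccaggaag

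The CAGCTG of App stood at positions -46 to -41 from the RefSeq start, and this stretch lies within an annotated first exon of App in GENCODE, which starts further upstream. The CACGTG of Adam10 stood at positions -64 to -59 from the RefSeq start, outside any annotated exon. That of Psen2 stood at positions -9 to -4 from the start of the inner of its 2 windows, inside the gene and outside any annotated exon. The CAGCTG of Adam17 was at positions -165 to -160 from its start. Since Adam10 is the α-secretase gene among the 9 and carries the preferred E-box close to its start, its 250 bases upstream (chr9:70678732-70678981, plus strand, GRCm38.p6) are given whole, again with the E-box in capitals. The 300-base window they belong to is 74% G and C.
Adam10 upstream: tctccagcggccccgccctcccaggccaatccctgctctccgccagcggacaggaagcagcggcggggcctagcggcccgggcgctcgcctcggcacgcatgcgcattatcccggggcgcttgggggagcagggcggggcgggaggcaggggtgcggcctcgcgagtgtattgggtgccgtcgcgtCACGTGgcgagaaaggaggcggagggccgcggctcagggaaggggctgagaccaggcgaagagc

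Levels between genes were compared as normalised count per kilobase of exon, with the union of all annotated exons of a gene as its length. Aplp1 stood highest with 10858 ± 291 (SD, n = 12 mice), followed by App with 3262 ± 112 and Aplp2 with 2087 ± 97.7. Of the proteases, Bace1 followed with 454 ± 14.9 and Adam10 with 393 ± 17.4 per kilobase. The 3 γ-secretase genes among the 9 were lower, with 218 ± 7.02 for Aph1a, 179 ± 17.3 for Psenen and 89.9 ± 6.5 for Psen2, which encodes a presenilin. Bace2, the paralogue of Bace1, was lowest with 5.78 ± 2.66 per kilobase. The ranges of all neighbours in this order were separate except those of Aph1a and Psenen, which overlapped, and these 2 genes changed places when the longest transcript was taken as the length. As shares of the 3 family genes per kilobase, Aplp1 made up 66.9% ± 1.01 in WT and 67.1% ± 0.882 in USF-1 KO mice, App 20.1% ± 0.677 and 20.1% ± 0.473, and Aplp2 13.0% ± 0.645 and 12.8% ± 0.661 (SD, n = 6 each). The App union of 12996 bases is longer than its longest transcript of 8167 bases. The share of App and its distance from Aplp1 therefore depend on the length taken. Undivided by length, App was higher than Aplp1, with mean normalised counts of 42388 and 32759 over the 12 mice.

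**Figure D1:**
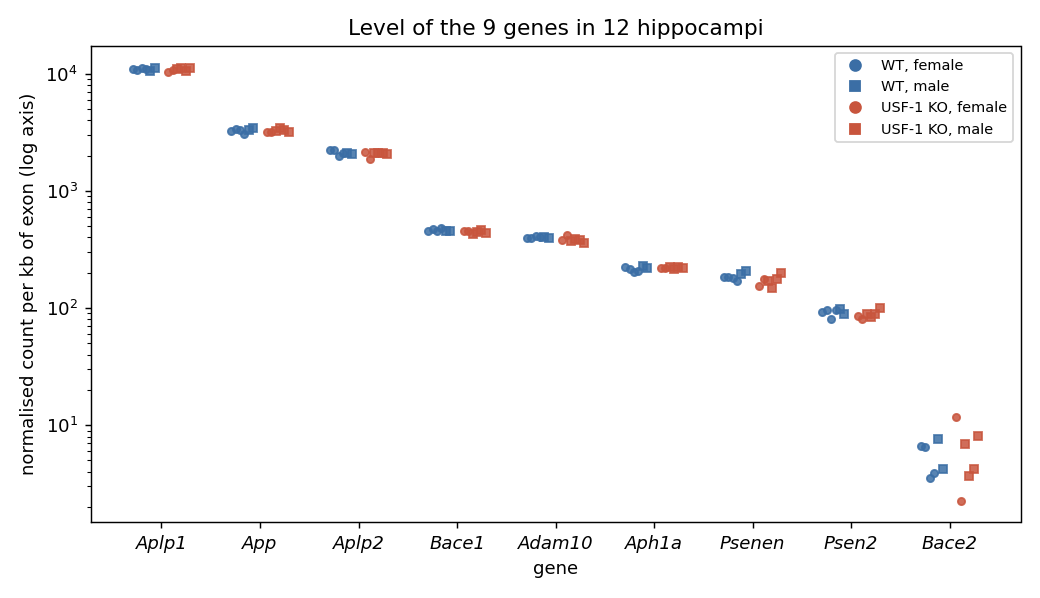
Normalised count per kilobase of exon (log axis) of the 9 genes in each of the 12 mice, in order of their mean level, with WT in blue, USF-1 KO in red, females as circles and males as squares. Aplp1 lies near 10858 and Bace2 near 5.78, and the points of both genotypes overlap within each gene.

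The question put to these genes was whether the hippocampus of mice without USF-1 holds another amount of their mRNA. None of the 9 genes passed the adjusted threshold of 0.05 in limma, where 0.900% of the 18221 genes tested passed it, 0.741% lower and 0.159% higher in USF-1 KO mice. Also 0 of 9 had an unadjusted p under 0.05 (13.5% of all genes, 7.60% with a lower value in USF-1 KO mice), 0 of 9 passed in edgeR (0.829% of all genes) or DESeq2 (3.38% of all genes), and in 0 of 9 did the genotypes fail to overlap (1.50% of all genes). The log2 differences, USF-1 KO minus WT on the log2(normalised count + 1) scale, were below 0 in 7 and above 0 in 2 of the 9 genes, with 50.2% of all genes below 0. Their median was -0.04, and the median of their sizes regardless of sign was 0.04, against 0.08 over all genes tested, which were not matched for level. A p above the threshold does not show that levels were equal, and the 95% intervals therefore say more. Apart from Bace2, the 8 genes had intervals that ran no lower than -18.8% and no higher than 7.61% of the WT level.

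App was among the most abundant mRNAs of the tissue, 31st of all genes by mean normalised count and 0.164% of the summed counts. It lies on the minus strand of chromosome 16 from 84949685 to 85173766 (ENSMUSG00000022892). WT mice had normalised counts of 42339, 43886, 42639, 39601, 42929 and 44462, and USF-1 KO mice had 41271, 41422, 41973, 44482, 42652 and 41003. The highest value belonged to KO 4 and the lowest to WT 4, and the genotypes overlapped. The means were 42643 ± 1690 and 42134 ± 1291 (SD, n = 6 each), a log2 difference of -0.02 (SE 0.04, limma adjusted p = 0.903, two-sided exact permutation p = 0.571). The 95% interval ran from -7.28% to 5.36%.

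The paralogues of App had intervals as narrow as its own. Aplp1 lies on chromosome 7 from 30434982 to 30445535, minus strand. It had 32731, 32573, 33976, 32956, 31581 and 33662 in WT and 31234, 32544, 32868, 33659, 31803 and 33526 in USF-1 KO mice. Its log2 difference was -0.01 (SE 0.04, limma adjusted p = 0.915), with an interval from -6.41% to 4.85%. Aplp2 lies on chromosome 9 from 31149557 to 31211815, minus strand. It had 13054, 13121, 11702, 12242, 12331 and 12107 in WT and 12646, 10939, 12252, 12268, 12325 and 12144 in USF-1 KO mice. Except for KO 2, which lay below all other mice, the USF-1 KO values were inside the WT range. The log2 difference of Aplp2 was -0.04 (SE 0.04, limma adjusted p = 0.745), with an interval from -8.74% to 3.78%, and it was -0.01 without KO 2.

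Bace1, which encodes the β-secretase of neurons, lies on chromosome 9 from 45838580 to 45864399, plus strand. WT mice had 2859, 3022, 2863, 3056, 2905 and 2871, and USF-1 KO mice had 2901, 2894, 2720, 2810, 2945 and 2773. The values of 3 USF-1 KO mice lay below every WT value and the others inside the WT range. The means were 2929 ± 86.9 and 2841 ± 86.6 (SD, n = 6 each), 97.0% of WT, with a log2 difference of -0.04 (SE 0.03, limma adjusted p = 0.595, exact permutation p = 0.106) and an interval from -7.63% to 1.79%. Exons of Rnf214 and Gm49338 on the opposite strand cover 15.4% and 15% of the Bace1 exon bases, and whether counting used strand is not given in the sources used here, so reads from these stretches cannot be assigned to either gene.

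Bace2, a paralogue of Bace1 with low activity towards amyloid beta production, lies on chromosome 16 from 97356742 to 97442936, plus strand, and had between 16 and 114 reads per mouse. WT mice had normalised counts of 52.5, 51.2, 27.7, 30.7, 60.5 and 33.3, and USF-1 KO mice had 92.8, 17.9, 54.5, 29.1, 33.0 and 63.8. The highest and the lowest of the 12 mice were both USF-1 KO females. The means were 42.6 ± 13.7 and 48.5 ± 27.5 (SD, n = 6 each), a log2 difference of 0.05 (SE 0.34, limma adjusted p = 0.970, exact permutation p = 0.656). Its interval, from -37.9% to 72.3%, would include sizeable changes either way. Bace2 varied between mice with a coefficient of variation of 46.0%, where counting error at its depth gives 14.5%, and 96.1% of the genes tested varied less. Fmod and Aldh1a2, genes known from meningeal fibroblasts and looked at after the values of Bace2 were seen, were also highest in KO 1, with 331 and 213. In KO 2 they had 35.8 and 37.0, the lowest of the 12 mice for Fmod but not for Aldh1a2, and their part in the spread of Bace2 was not tested.

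Adam10, on chromosome 9 from 70678997 to 70780229, plus strand (ENSMUSG00000054693), had the smallest unadjusted p of the 9 genes. WT mice had 1950, 1961, 2031, 1997, 2002 and 1930, and USF-1 KO mice had 1878, 2057, 1820, 1924, 1855 and 1778. All USF-1 KO mice but KO 2 lay below every WT mouse, whereas KO 2 lay above every WT mouse. The means were 1978 ± 37.6 and 1885 ± 97.6 (SD, n = 6 each), 95.3% of WT, a log2 difference of -0.07 (SE 0.04, unadjusted p = 0.0771, limma adjusted p = 0.433, exact permutation p = 0.0563) with an interval from -9.92% to 0.613%. Without KO 2 the log2 difference was -0.10, with an unadjusted p of 0.0116 and a limma adjusted p of 0.257, which also misses the threshold. Without KO 6 it was -0.05 (limma unadjusted p = 0.165). The unadjusted p of Adam10 was under 0.05 in 2 of 23 alternative settings. The ratio of Adam10 to Bace1 per kilobase was 0.873 ± 0.0293 in WT and 0.858 ± 0.0393 in USF-1 KO mice, a difference smaller than the spread in either genotype.

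**Figure D2:**
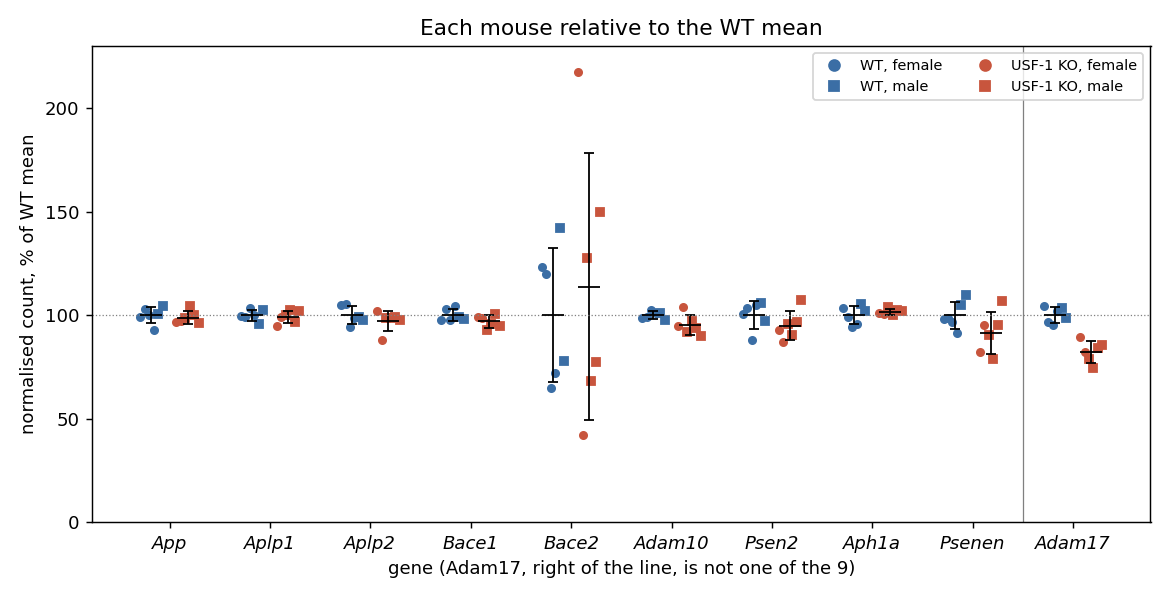
Normalised count of each mouse as a percentage of the WT mean of the gene, for the 9 genes and for Adam17, with WT in blue, USF-1 KO in red, females as circles, males as squares, and the mean with its SD (n = 6) in black. The genotypes overlap in the 9 genes, Bace2 spreads most, and the 6 USF-1 KO mice lie below the 6 WT mice in Adam17.

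Of the γ-secretase genes, Psen2 lies on chromosome 1 from 180227004 to 180263438, minus strand, 8.81 Mb from Usf1. WT mice had 402, 414, 352, 419, 422 and 387, and USF-1 KO mice had 370, 348, 382, 360, 386 and 429. KO 6 held the highest value and KO 2 the lowest. The log2 difference was -0.07 (SE 0.06, limma adjusted p = 0.647, exact permutation p = 0.227), with an interval from -13.4% to 4.11%. Aph1a, which encodes an APH1 subunit, lies on chromosome 3 from 95893969 to 95898288, plus strand. It had 772, 740, 706, 716, 789 and 761 in WT and 754, 752, 778, 746, 766 and 761 in USF-1 KO mice. The USF-1 KO values lay inside the WT range, and the log2 difference was 0.02 (SE 0.04, limma adjusted p = 0.825, interval from -3.86% to 7.61%). Car14 on the opposite strand covers 12.9% of the Aph1a exon bases.

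Psenen encodes PEN-2, the smallest subunit of the complex, and lies on chromosome 7 from 30561863 to 30563627, minus strand. WT mice had 235, 235, 231, 218, 251 and 262, and USF-1 KO mice had 196, 227, 216, 188, 227 and 255. KO 1, KO 3 and KO 4 lay below every WT mouse, while KO 6 was exceeded by WT 6 alone. The means were 239 ± 15.6 and 218 ± 24.3 (SD, n = 6 each), 91.5% of WT, the lowest percentage of the 9 genes. The log2 difference was -0.13 (SE 0.08, limma adjusted p = 0.493, exact permutation p = 0.110) with an interval from -18.8% to 2.5%. With 155 to 295 reads per mouse, counting error alone gives a coefficient of variation of 6.58%, beside 9.68% measured. Without KO 6 the log2 difference was -0.18 (unadjusted p = 0.0304, limma adjusted p = 0.286). Without KO 4 it was -0.09 (limma unadjusted p = 0.253). The unadjusted p of Psenen was under 0.05 in 1 of 23 alternative settings. Exons of U2af1l4 and Gm49396 on the opposite strand cover 9.33% and 8.71% of its exon bases.

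Among themselves the 9 genes differed in how steady they were from mouse to mouse. In 6 of them the coefficient of variation over all 12 mice was under 5%, from 2.68% in Aplp1 over 3.21% in Aph1a, 3.29% in Bace1, 3.44% in App and 4.44% in Adam10 to 4.68% in Aplp2, against a median of 11.0% over all genes tested. Only 0.477% of the genes tested varied less than Aplp1, and 2.18% less than App. The genes compared were not matched for level, and App and Aplp1 were 31st and 53rd by mean normalised count. Psen2 followed with 7.23%. KO 2 was the lowest of the 12 mice for Aplp2, Bace2 and Psen2 and the highest for Adam10, while the other mice held at most 2 of these 18 extreme places each. KO 2 also had the lowest summed oligodendrocyte markers, 71972, and the highest summed granule and pyramidal cell markers, 27729, of the 12 mice, and the part of this in the values of the 9 genes was not tested.

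Sexes were unequal between the genotypes, so sex was also added as a covariate, and 0 of the 9 genes passed. With it the log2 difference of Adam10 went from -0.07 to -0.05 (limma unadjusted p = 0.183). That of Psenen went from -0.13 to -0.17 (limma unadjusted p = 0.0552). In a separate fit the difference between genotypes was compared between females and males. The interaction of sex and genotype passed the adjusted threshold in 0 of the 9 genes and in 0 of all genes tested (0.00%), with 628 genes (3.45%) at an unadjusted p under 0.05 and 0 of the 9 among them. The smallest unadjusted p of the 9 belonged to Adam10 (limma fit, 0.317 before adjustment), which averaged 1985 in WT females, 1967 in USF-1 KO females, 1966 in WT males and 1844 in USF-1 KO males. The WT males and the USF-1 KO females were 2 mice each.

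The other genes of the pathway were taken from lists of names. Of the 44 that could be tested, 1 passed the threshold, where 0.900% of all genes tested passed it. This was Adam17, the gene of the α-secretase that also sheds tumour necrosis factor, on chromosome 12 from 21323509 to 21373632, minus strand (ENSMUSG00000052593). WT mice had 461, 428, 420, 450, 456 and 437, and USF-1 KO mice had 395, 363, 348, 329, 373 and 378. All USF-1 KO mice lay below all WT mice, as in 1.08% of the genes tested. The means were 442 ± 16.4 and 364 ± 23.5 (SD, n = 6 each), 82.4% of WT, a log2 difference of -0.28 (SE 0.05, limma adjusted p = 0.0238, interval from -23.8% to -11.0%), and the exact permutation p of 0.00216 is the smallest this design can give. The call was lost with sex as a covariate (limma adjusted p = 0.0596), without the choroid-rich WT 1 (0.0728), WT 6 (0.0508), KO 2 (0.0552), KO 3 (0.0644) or KO 5 (0.0538), and without both WT 1 and WT 5 (0.139), while the log2 difference stayed between -0.30 and -0.25 and the unadjusted p under 0.05 in all 23 alternatives. The ratio of Adam10 to Adam17 per kilobase was 6.53 ± 0.301 in WT and 7.57 ± 0.696 in USF-1 KO mice (SD, n = 6 each), and the genotypes overlapped. Exons of Iah1 on the opposite strand cover 4.35% of the Adam17 exon bases. Whether Adam17 changed more than Adam10, and the part of the oligodendrocyte markers in the Adam17 values, were not tested.

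**Figure D3:**
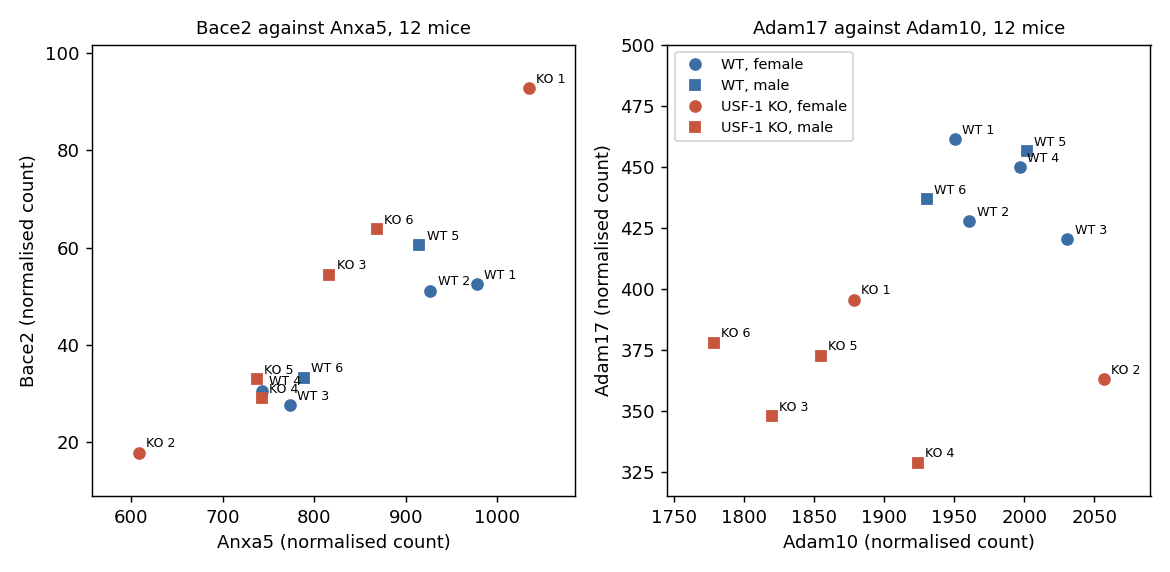
Normalised counts of 1 gene against another in the 12 mice, Bace2 against Anxa5 on the left and Adam17 against Adam10 on the right, with WT in blue, USF-1 KO in red, females as circles and males as squares. On the right the genotypes separate along Adam17, and KO 2 stands at the far end of Adam10; on the left Bace2 is highest where Anxa5 is highest, in KO 1, and lowest where it is lowest, in KO 2.

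The other 6 genes of the list of other secretases did not pass. Ncstn, which encodes nicastrin and lies 0.647 Mb from Usf1, had means of 1622 ± 92.7 in WT and 1550 ± 78.0 in USF-1 KO mice (SD, n = 6 each, limma adjusted p = 0.574). In this list 2 of 7 genes, Adam17 and Aph1b, had an unadjusted p under 0.05 with a lower mean in USF-1 KO mice (7.60% of all genes tested), and the median log2 difference was -0.06. Of the tetraspanins that escort ADAM10 to the cell surface, 5 of 6 genes were tested and 0 passed (0.900% of all genes tested). At an unadjusted p under 0.05, 2 of the 5 were lower in USF-1 KO mice (7.60% of all genes tested). Tspan15 had a mean of 496 ± 54.0 in WT and 424 ± 52.5 in USF-1 KO mice (log2 difference -0.23, limma adjusted p = 0.309), and Tspan14 had 807 ± 64.3 and 727 ± 56.8 (log2 difference -0.15, limma adjusted p = 0.308). The median of this list was -0.14.

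Of 19 genes for adaptors and trafficking proteins of App, 0 passed, with 2 lower and 3 higher at an unadjusted p under 0.05 (13.5% of all genes tested in either direction) and a median log2 difference of 0.03. The smallest p belonged to Apbb3, an adaptor that binds the cytoplasmic tail of App, with 860 ± 49.0 in WT and 940 ± 27.1 in USF-1 KO mice (log2 difference 0.13, limma adjusted p = 0.186). It was followed by Picalm, an endocytic clathrin adaptor, with 3519 ± 185 and 3245 ± 91.6 (log2 difference -0.12, limma adjusted p = 0.199). Of 13 genes for degradation and clearance of amyloid beta, 0 passed, with 2 lower and 1 higher at that p and a median of 0.00. Both lower genes encode lysosomal proteases. Ctsb, the cathepsin B gene, had 12330 ± 532 and 11073 ± 261 (log2 difference -0.15, limma adjusted p = 0.0734). It passed in DESeq2 (adjusted p = 6.15e-04), as did 3.38% of all genes, and in limma without WT 4 (adjusted p = 0.00860), where 515 genes were called. Ctsb missed the threshold in the other 21 alternatives, among them the fit without both WT 1 and WT 5 (limma adjusted p = 0.318). Ctsd, the cathepsin D gene, had 4745 ± 687 and 3979 ± 191 (log2 difference -0.24, limma adjusted p = 0.155), and the genotypes did not overlap, lower in USF-1 KO mice as in 1.08% of the genes tested. The choroid-rich WT 5 and WT 1 held the highest Ctsd values, 6070 and 4899, and without both of them the log2 difference of Ctsd was -0.14 (limma adjusted p = 0.312). The microglial markers Cx3cr1, P2ry12, Tmem119, Csf1r and C1qa summed to 5093 to 7359 in WT mice, while USF-1 KO mice had 4821 to 5441. Of these markers 4 of 5 were lower at an unadjusted p under 0.05 (7.60% of all genes tested). Their part in these values and in those of Adam17 was not tested.

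**Figure D4:**
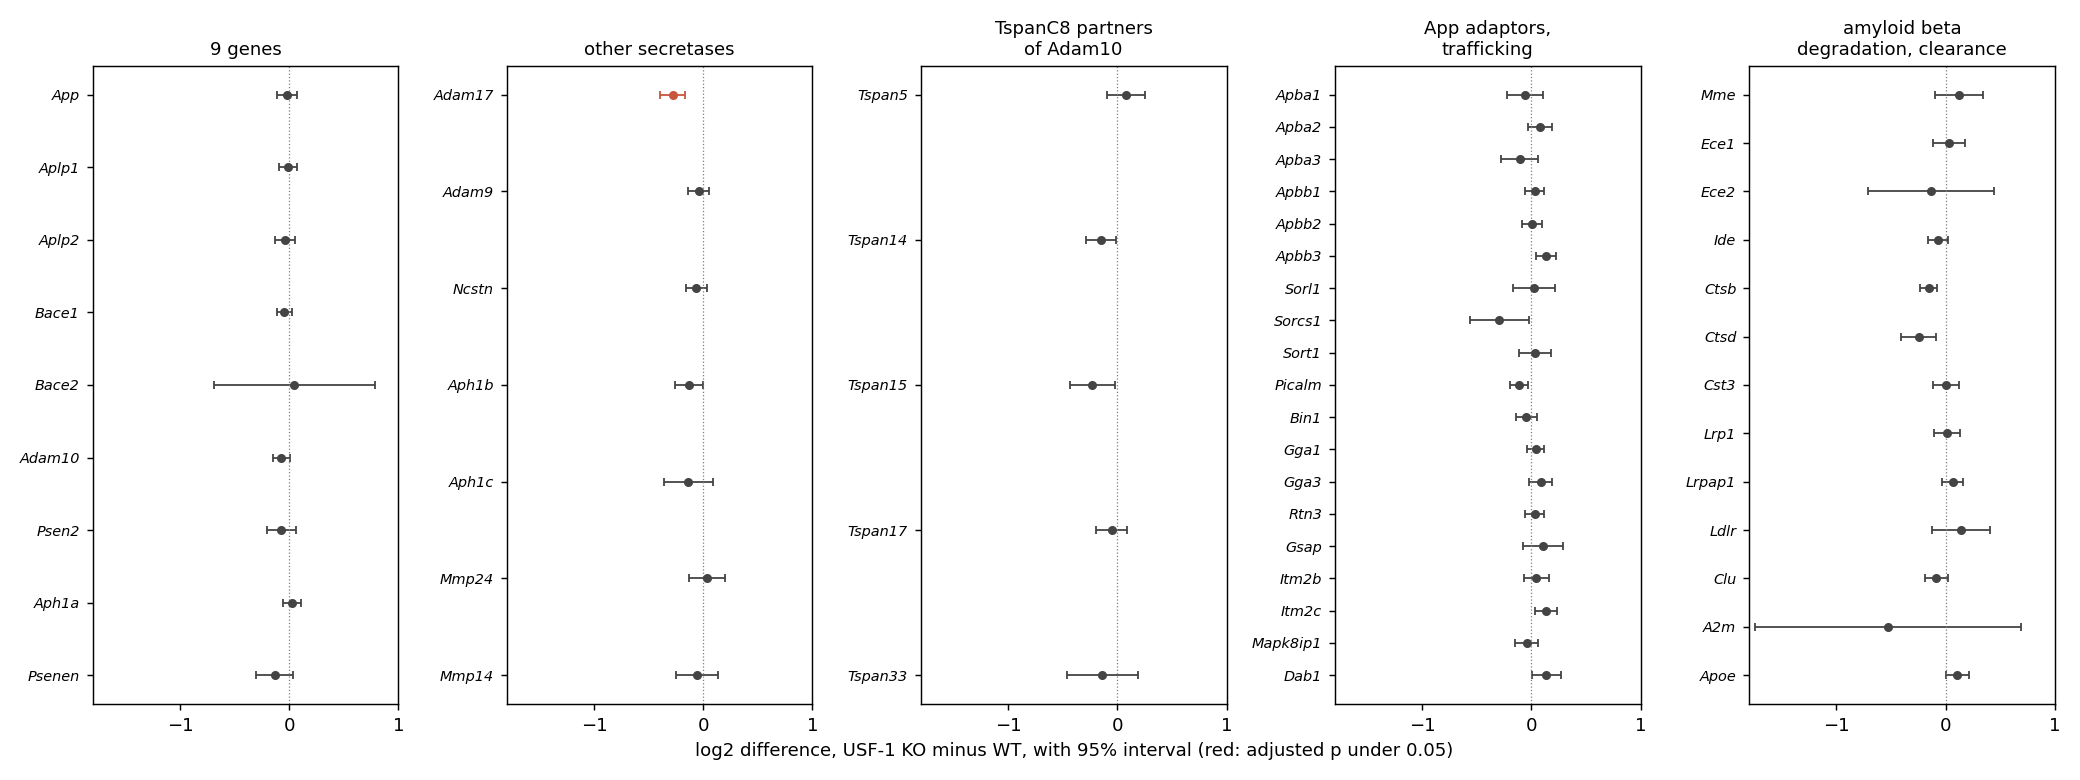
Log2 difference between USF-1 KO and WT mice with its 95% interval from limma, for the 9 genes and the 44 tested genes of the 4 pathway lists, with genes past the adjusted threshold in red. The 9 genes lie between -0.13 and 0.05, and Adam17 at -0.28 is the single gene in red.

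The genes most like App and Adam10 from mouse to mouse were sought among the 12676 other genes with a mean of at least 100, by Pearson's r of log2 values centred within each genotype over the 12 mice. This is a description over 12 libraries, which differed in depth and in choroid plexus markers. The highest of so many values is high in any case. For App they were Pdk3 (r = 0.938), Gm8991 (0.926), Crls1 (0.916), Rgmb (0.905) and Enox2 (0.901). For Adam10 they were Jarid2 (r = 0.955), Rab8b (0.945), Kpna6 (0.936), Morc3 (0.931) and Copb1 (0.925). Neither list held another of the 9 genes.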

How the data were processed

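Per the file header and the methods, the authors aligned reads with the RNA-Seq app of Basespace and STAR and deposited the signal of each gene as a DESeq2-normalised count. The submitters' processing notes name STAR 2.5.0a, edgeR 3.22.2 and mm10, while the counter and its use of strand are not given in the sources used here. In each library 100% of values were whole multiples of 1 step (tolerance 1e-06), which gave back whole reads. Counts of any 2 libraries differed with a chi-square of at least 4.54 per degree of freedom, so none was a repeat. GENCODE M21 on GRCm38 had the same coordinates for 99.4% of 55141 shared genes. Replicates are separate mice.

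For the comparison of genotypes, 1 was added to the normalised count, and log2 values of all genes with a mean of at least 10 over the 12 mice were fitted in limma 3.58.1 (R 4.3.3), with a trend of variance on level and no covariate, two-sided, at a Benjamini-Hochberg threshold of 0.05. Single genes were also tested with two-sided exact permutation tests over 924 assignments. Other settings tried were adding 0.5 or 5, testing every gene or those with a mean of at least 50, rescaled totals, quantile normalisation, sex in the model, no trend, a threshold of 0.1, 11 mice at a time, and edgeR 4.0.16 (quasi-likelihood, TMM) or DESeq2 1.42.0 on the recovered reads. The steps were tested on simulated data. Plots used Python 3.11.15 and matplotlib 3.10.9.

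The 9 genes, the lists and the tests were chosen with earlier results of these data known. Of each pathway list, genes past the threshold were named, or the 2 with the smallest p, with Usf2 given beside Usf1. For App and for the gene of the 9 with the smallest p, the 5 most correlated genes (mean at least 100) were named. Ncstn, Aph1b, Fmod, Aldh1a2, Spp1, Ptgds and the genes like Bace2 were chosen after their values were seen. A gene of the lists is not reported here.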

Additional observations from a re-analysis of the deposited data

Results flagged for a closer look

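Of the 26 groups of 6 mice examined (both genotypes for the 9 genes, Adam17, Ncstn, Usf1 and Usf2), the most extreme mouse stood apart from the rest by Dixon's test in 3, where chance alone would give about 1.3. Aplp2 in KO 2 was 10939, below the other 5 USF-1 KO mice at 12144 to 12646. Ncstn in KO 2 was 1701, above the other 5 USF-1 KO mice at 1499 to 1571. Usf1 in WT 5 was 842, below the other 5 WT mice at 1425 to 1583 and above the 6 USF-1 KO mice at 117 to 163.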

How the results depend on the processing

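None of the 9 genes passed the threshold under any of the 24 alternatives. The direction was kept under all 23 alternatives fitted for each gene except Bace2, whose log2 difference lay between -0.17 and 0.29 when 1 mouse was left out and was below 0 without WT 3, WT 4, WT 6, KO 1, KO 3 or KO 6. With a mean of at least 50 Bace2 could not be fitted. Leaving out 1 mouse gave -0.04 (without WT 4) to -0.0047 (without WT 6) for App, -0.03 (WT 5) to -0.0014 (KO 1) for Aplp1, -0.06 to -0.01 (KO 2) for Aplp2, 0.0082 (WT 3) to 0.04 (WT 5) for Aph1a, -0.06 to -0.03 for Bace1, -0.10 to -0.05 for Adam10, -0.11 to -0.05 for Psen2 and -0.18 to -0.09 for Psenen. The 164 genes called in all became 98 with sex as a covariate, 109 without the trend, 616 in DESeq2, 343 at a threshold of 0.1, 59 without WT 1 and WT 5 (an alternative chosen after seeing the data) and between 64 (without WT 1) and 515 (without WT 4) when 1 mouse was left out. They were under 100 also without WT 2 (87), WT 6 (85), KO 2 (85), KO 3 (87), KO 4 (97) or KO 5 (72). The interaction was called in 0 to 1 genes when 1 mouse was left out, with 1 gene without KO 1 or KO 6, and where a sex and genotype kept 1 mouse this mouse was assumed to vary like the other groups. Taking the longest transcript as the length changed the place of 2 of the 9 genes, Aph1a and Psenen. The cause of these shifts was not tested. No paired analysis was possible because the mice were numbered in accession order within each genotype and the labels give no pairing. Depth limits Bace2 most, with 16 to 114 reads per mouse.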

Other observations

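The genes whose level followed Bace2 most closely from mouse to mouse, by Pearson's r of log2 values centred within each genotype over the 12 mice among 12677 genes, were Anxa5 (r = 0.964), Metap2 (0.947), Irgm1 (0.940), Cp (0.939) and Lyz2 (0.937), chosen after the spread of Bace2 was seen. Anxa5 encodes an annexin, Metap2 a methionine aminopeptidase, Irgm1 an interferon-induced GTPase, Cp ceruloplasmin and Lyz2 a lysozyme of macrophages. Anxa5 was highest in KO 1 with 1034 and lowest in KO 2 with 608, the same mice as for Bace2 with 92.8 and 17.9. Spp1, the osteopontin gene, was highest and lowest in these mice too, with 171 and 28.0, and Ptgds, the gene of a prostaglandin D synthase of meninges and choroid plexus, was highest in KO 1 with 11208 and lowest in WT 4 with 2008. This is a description over 12 libraries, with no test, and the highest of so many correlations is high in any case.

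Usf2 is the gene of the partner of USF-1. It had a normalised count of 1995 ± 73.9 in WT and 2075 ± 26.7 in USF-1 KO mice (SD, n = 6 each). The log2 difference was 0.06 (limma adjusted p = 0.468, two-sided exact permutation p = 0.0216, not adjusted over genes). In 3 USF-1 KO mice the value lay above every WT mouse. The lowest values were those of the WT males, WT 5 with 1886 and WT 6 with 1924.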
